A study of Mus musculus with 57 samples.

Results

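Fluoxetine was compared with vehicle in prefrontal cortex from mice with 1 Shank3 delta C allele (heterozygotes, HT). All 18 libraries labelled HT and either fluoxetine or vehicle were taken, out of the 56 libraries of the study with a column of values. They fall into 5 fluoxetine females, 5 vehicle females, 5 fluoxetine males and 3 vehicle males. All mice were of the C57BL/6J strain. Pups took the drug or vehicle in through their mother's milk for 3 weeks, from postnatal day 3 to day 24, and the tissue was taken on day 25. What delta C removes from Shank3 is not stated in the labels, which also name no litter, dam or dose and do not call replicates separate animals. Therefore the p-values measure the spread between these libraries, which may be partly technical or shared within a litter. The wider study also treated wild-type (WT) mice and used lithium as a further drug. The 20 WT fluoxetine and vehicle libraries serve here as a comparison in other mice.

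Fluoxetine blocks the serotonin transporter, which returns released serotonin to the axon terminal. Serotonin axons reach the prefrontal cortex from the raphe nuclei of the brainstem, so the cortex holds the receptors and the breakdown enzymes while the neurons that make serotonin lie elsewhere. Shank3 encodes a scaffold of the postsynaptic density, the protein lattice under excitatory synapses. Fluoxetine is also a cationic amphiphilic compound, a class known to gather in lysosomes and to disturb the traffic of cholesterol inside cells.

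Each of the 18 libraries had between 23562612 and 35916099 reads assigned to genes, and values are counts divided by a size factor per library. Cortical markers were high in all 18 libraries: Slc17a7, the vesicular glutamate transporter of cortical excitatory neurons, ranged from 37406 to 54964, and the upper-layer gene Cux2 from 2507 to 4152. Other tissue was uneven between libraries. Vehicle female 1 held choroid plexus transcripts: its Ttr value was 50312, against 3.25 to 61.5 in the other 4 vehicle females and 1.12 to 8.25 in fluoxetine females. The mean level of 9 olfactory bulb markers, as a log2 deviation from their median over all libraries, ranged from -2.33 to 2.19 among vehicle females and from -2.22 to 2.17 among fluoxetine males.

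Shank3 itself did not differ detectably between fluoxetine and vehicle. It measured 6796, 8468, 8014, 7682 and 7909 in fluoxetine females and 5748, 8118, 8248, 8005 and 7498 in vehicle females. It measured 8080, 8755, 8252, 8736 and 6531 in fluoxetine males and 8208, 8048 and 7507 in vehicle males. The groups overlapped in both sexes, and the log2 fold change averaged over the sexes was 0.04 ± 0.09 (SE), with an adjusted p of 0.994. Reads over the whole gene are counted together, so these values do not check the deletion.

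The genes of serotonin signalling showed no change that passed the test. The serotonin transporter gene Slc6a4 was not analysed here. Tph2, the enzyme of serotonin synthesis in raphe neurons, was near the lower end of detection, at 17.9, 16.1, 13.4, 22.7 and 29.6 in fluoxetine females and 34.4, 37.9, 35.7, 23.3 and 38.5 in vehicle females. Only vehicle female 4 lay within the fluoxetine range. In males the values were 17.1, 34.8, 30.2, 26.4 and 25.7 with fluoxetine and 47.1, 37.0 and 22.1 with vehicle, which overlap. The sex-averaged log2 fold change of Tph2 was -0.56 ± 0.26 (SE), with an unadjusted p of 0.0351 and an adjusted p of 0.632. Maoa, the monoamine oxidase that degrades serotonin, stood at -0.13 ± 0.06 (SE, adjusted p = 0.629) and Maob at -0.06 ± 0.08 (SE, adjusted p = 0.956). Among the receptors, Htr2a stood at -0.12 ± 0.12 (SE, adjusted p = 0.931), Htr1a at -0.08 ± 0.12 (SE, adjusted p = 0.975), Htr1b at 0.03 ± 0.13 (SE) and Htr2c at 0.01 ± 0.21 (SE), the last 2 with an adjusted p of 1.0. The 12 receptor genes had a median of -0.01 and none had an unadjusted p below 0.05. The 12 genes of monoamine synthesis, transport and breakdown had a median of -0.11, with Tph2 and Maoa the only members at that level.

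With the sexes averaged, 0 of 18026 genes (0.0%) passed an adjusted p of 0.05 in limma, and edgeR on the recovered read counts also called 0. Without vehicle female 5 it was 3, and 1 without vehicle female 2, vehicle male 2 or vehicle male 3. At an unadjusted p below 0.05, 1307 genes (7.25%) remained, 688 higher and 619 lower with fluoxetine. The median absolute log2 fold change over all genes was 0.07, below the median standard error of 0.09. The smallest adjusted p was 0.109, so the genes that follow are given as the 10 with the smallest p in each direction and not as changes.

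On the higher side stood Pml, the scaffold of nuclear bodies, at 0.24 ± 0.05 (SE, adjusted p = 0.109), and Ncan, the brain proteoglycan neurocan, at 0.27 ± 0.06 (SE, adjusted p = 0.109). Pml measured 383, 400, 329, 377 and 402 in fluoxetine females against 273, 307, 281, 339 and 325 in vehicle females, where 1 vehicle library exceeded the lowest fluoxetine library. In males Pml measured 393, 363, 326, 370 and 354 with fluoxetine against 313, 320 and 327 with vehicle, again with 1 crossing pair. A pair of genes of sphingosine 1-phosphate signalling were among the 10: Sphk2, a kinase that makes the ligand, at 0.25 ± 0.06 (SE), and S1pr3, a receptor for it, at 0.26 ± 0.07 (SE). The others were the microtubule regulator Dpysl2 at 0.29, the ubiquitin ligase of endoplasmic reticulum-associated degradation Syvn1 at 0.20, the histone methyltransferase Setd1b at 0.27, the synaptic adhesion gene Nlgn3 at 0.23, the chromatin remodeller subunit Bicra at 0.26 and the lysosomal glucosidase Gaa at 0.30. All 10 were above 0 in each sex, with adjusted p from 0.109 to 0.232. They were chosen on the average of both sexes, which favours genes with the same sign in each. The shared sign is therefore no separate support.

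On the lower side stood the zinc finger gene Zfp971 at -0.37 ± 0.08 (SE, adjusted p = 0.109), and its values were 199, 211, 201, 208 and 165 in fluoxetine females against 236, 309, 298, 225 and 225 in vehicle females. In males they were 167, 228, 189, 171 and 188 against 227, 248 and 246. The female groups did not overlap, and in males 1 fluoxetine library reached the lowest vehicle library. Mrps18c, a subunit of the mitochondrial ribosome, stood at -0.34 ± 0.07 (SE), and the chemokine receptor-like gene Ccrl2 had the largest change of the 20, -0.64 ± 0.17 (SE), at values between 13.5 and 36.7. Cops3 and Cops5, subunits of the COP9 signalosome that removes Nedd8 from cullin ligases, both stood at -0.15 ± 0.04 (SE). The remaining genes were Cebpzos at -0.30, Nsdhl of cholesterol synthesis at -0.28, Usmg5 at -0.24, Selenof at -0.19 and Mettl9 at -0.17. Of these 10, 9 were below 0 in each sex, which the choice on the average again favours. Usmg5 was the exception: -0.58 in females and 0.09 in males.

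**Figure D1:**
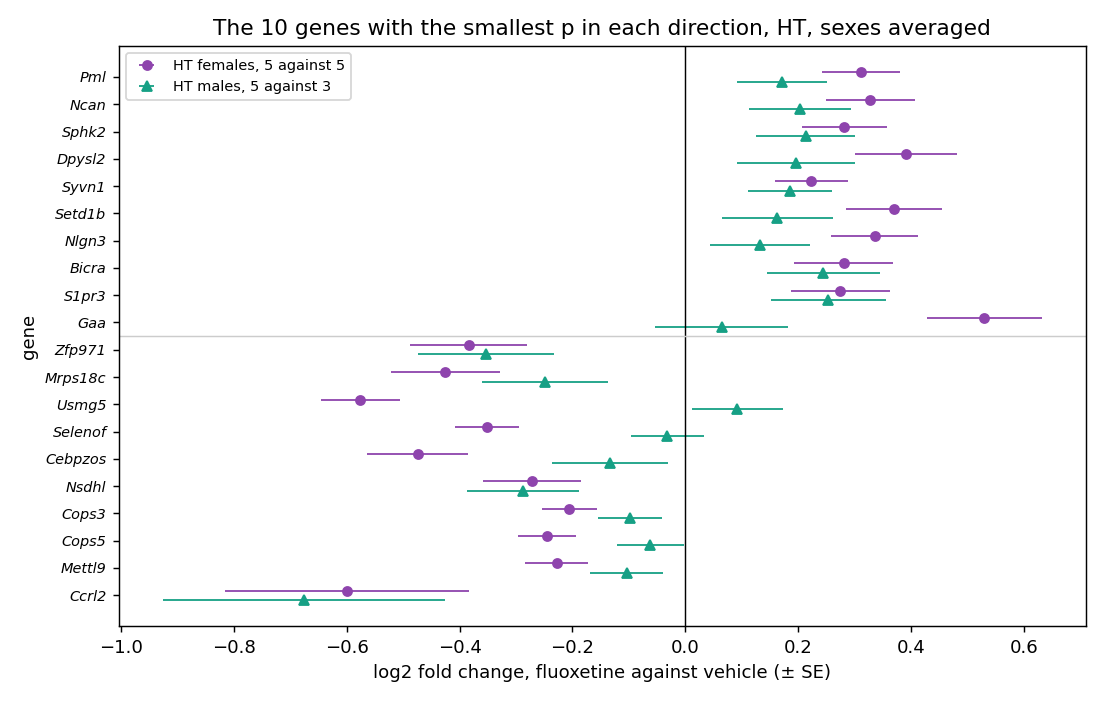
Log2 fold change of fluoxetine against vehicle (x axis, point with SE) in HT females (circles) and HT males (triangles) for the 20 genes with the smallest p when the sexes are averaged, 10 higher and 10 lower. Usmg5 is the 1 gene whose 2 points lie on opposite sides of 0, at -0.58 in females and 0.09 in males.

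Genes of cholesterol synthesis lay below vehicle in both sexes, although 0 of the 26 listed passed the adjusted test. The pathway builds sterols from acetyl-CoA through mevalonate and squalene, and the transcription factor SREBP2 (gene Srebf2) switches its enzymes on when sterols in the endoplasmic reticulum run low. In well-studied promoters of the pathway, sterol regulatory elements lie near CCAAT boxes, which bind the cofactor NF-Y. With the sexes averaged, 22 of 26 members were below 0, with a median log2 fold change of -0.13 against 0.00 over all genes. At an unadjusted p below 0.05, 11 members were lower and 0 higher, against 3.43% of all genes lower at that level.

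The promoters of Nsdhl, Idi1 and Hmgcs1 are printed from RefSeq (GRCm38.p6), as the 3 members with the smallest p among the 18 with an entry used here. Stard4, Sqle and Fdps, with a smaller p than Idi1, are not printed. Each window runs from 250 bases before to 50 bases after the start of transcription, and all 3 lie on the plus strand. Capitals mark CCAAT and the sterol element core TCACCC, each on either strand (ATTGG and GGGTGA on the other).
Nsdhl, chrX:72918271-72918570: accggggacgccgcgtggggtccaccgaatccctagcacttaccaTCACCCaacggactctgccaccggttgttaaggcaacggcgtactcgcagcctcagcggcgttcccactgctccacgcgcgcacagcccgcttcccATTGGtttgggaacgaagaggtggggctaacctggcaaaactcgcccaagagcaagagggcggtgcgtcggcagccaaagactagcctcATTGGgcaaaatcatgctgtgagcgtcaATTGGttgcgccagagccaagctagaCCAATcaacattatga
Idi1, chr13:8885356-8885655: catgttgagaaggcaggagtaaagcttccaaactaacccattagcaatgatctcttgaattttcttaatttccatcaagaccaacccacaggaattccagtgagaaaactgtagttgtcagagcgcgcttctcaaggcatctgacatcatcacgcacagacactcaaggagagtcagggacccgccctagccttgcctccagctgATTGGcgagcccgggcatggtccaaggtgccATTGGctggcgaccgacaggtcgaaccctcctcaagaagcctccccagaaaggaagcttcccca
Hmgcs1, chr13:119690101-119690400: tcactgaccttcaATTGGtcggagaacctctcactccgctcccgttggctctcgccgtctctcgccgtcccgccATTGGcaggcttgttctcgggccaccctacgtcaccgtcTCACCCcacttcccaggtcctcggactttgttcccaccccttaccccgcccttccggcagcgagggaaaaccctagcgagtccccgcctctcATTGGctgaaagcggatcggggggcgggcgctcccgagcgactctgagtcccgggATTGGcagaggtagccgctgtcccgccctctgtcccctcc
These windows hold 4, 2 and 4 CCAAT matches. All 18 list members with a RefSeq promoter had CCAAT in at least 1 of their windows, and 19 of their 25 windows held it, against 37.4% of all 32851 windows. TCACCC was in 8 of the 25 windows, belonging to 7 of the 18 genes, and in 16.2% of all windows. The Idi1 window holds no TCACCC. The 9-base element TCACCCCAC was found in 1 list window, that of Hmgcs1, and in 0.551% of all windows. A match is a description of the letters and was not tested for binding.

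Nsdhl, a dehydrogenase in the late, sterol part of the pathway, had the smallest p of the list. It measured 582, 640, 602, 653 and 566 in fluoxetine females and 602, 703, 834, 773 and 778 in vehicle females, and only vehicle female 1 lay within the fluoxetine range. It measured 553, 611, 636, 597 and 601 in fluoxetine males and 764, 714 and 718 in vehicle males, with no overlap. The log2 fold change was -0.27 ± 0.09 in females and -0.29 ± 0.10 in males (SE), and -0.28 ± 0.07 averaged (SE, unadjusted p = 9.76e-05, adjusted p = 0.135). Stard4, which carries cholesterol between membranes, measured 975, 785, 744, 793 and 848 in fluoxetine females and 790, 1069, 1149, 1085 and 1023 in vehicle females. In males Stard4 measured 769, 761, 741, 823 and 732 against 934, 891 and 956, again without overlap, and its averaged log2 fold change was -0.29 ± 0.08 (SE, adjusted p = 0.232).

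Enzymes at the head of the pathway lay in the same direction; they are named here after their values were seen. Hmgcs1, which condenses acetyl-CoA units into HMG-CoA, measured 8178, 10192, 10138, 9841 and 8568 in fluoxetine males and 11677, 11193 and 11138 in vehicle males, and the groups did not overlap. In females it measured 11340, 9523, 9730, 9663 and 9823 with fluoxetine and 9122, 11012, 12478, 11770 and 11144 with vehicle, which overlap. Its averaged log2 fold change was -0.21 ± 0.08 (SE, adjusted p = 0.493). Idi1, the isomerase of the isoprenoid units, stood at -0.26 ± 0.09 (SE), Fdps, which joins them into farnesyl diphosphate, at -0.21 ± 0.07 (SE), and Sqle, which oxidises squalene, at -0.21 ± 0.07 (SE). Insig1, which holds the SREBP complex in the endoplasmic reticulum and is itself a target of it, stood at -0.16 ± 0.07 (SE). Members above 0 included Ebp at 0.08, Dhcr7 at 0.07 and Srebf1, which drives fatty acid genes more than sterol genes, at 0.05.

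The cholesterol genes stood at a female median of -0.11 and a male median of -0.17. At an unadjusted p below 0.05, 8 members were lower and 0 higher in females, where 5.23% of all genes were lower and 6.06% higher at that level. In males 7 members were lower and 0 higher, against 1.35% and 2.22% of all genes. Vehicle female 1, the library with choroid plexus transcripts, was the lowest vehicle female for Nsdhl, Stard4 and Hmgcs1. Without it the female median was -0.17 with 11 members lower, and the averaged median -0.16 with 13 lower. Other alternatives weakened the list: over all 19 run for females the median ran from -0.17 to -0.08, with 4 to 11 members lower. Over 17 for males it ran from -0.22 to -0.13 with 2 to 9 lower. Over 27 for the average it ran from -0.16 to -0.11 with 8 to 14 lower. WT mice given fluoxetine, which share no library with the HT comparison, had a list median of -0.26, with 24 of 26 members below 0. There 12 members fell at an adjusted p below 0.05 (1.99% of all genes were called lower), and all 12 were below 0 in HT. In all 4 combinations of sex and genotype, 16 of 26 members (61.5%) lay below 0, against 9.67% of all genes. No member passed the test of the difference between the HT and WT effects, which does not show that the effects are equal.

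**Figure D2:**
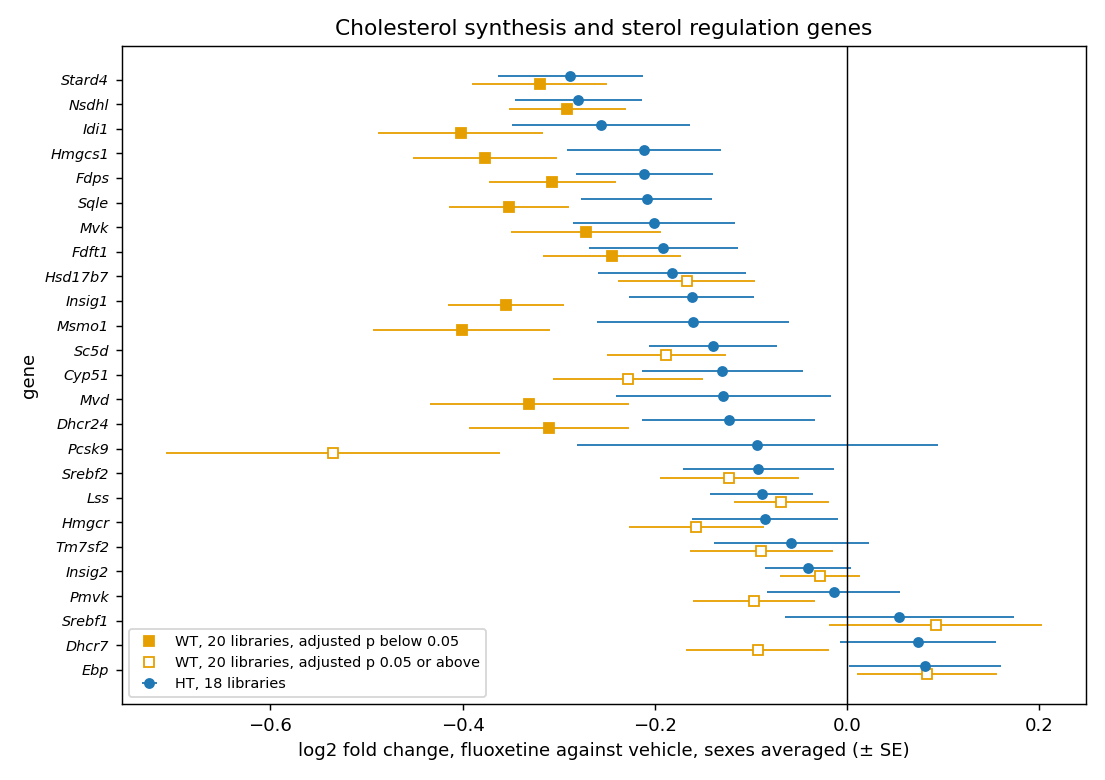
Log2 fold change of fluoxetine against vehicle with the sexes averaged (x axis, point with SE) for 25 of the 26 genes of cholesterol synthesis and sterol regulation, in HT (circles) and WT mice (squares, filled where the adjusted p was below 0.05). In HT 22 points and in WT 23 points lie below 0, and no HT point passed the adjusted test.

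Within HT mice, females were the group in which single genes passed the test. Of 18026 genes, 131 (0.727%) were called in limma, 71 higher (0.394%) and 60 lower (0.333%) with fluoxetine, and edgeR called 160. Leaving out single libraries moved the limma count between 9 and 304. Calls were not particular to HT females: of the same 18026 genes, limma called 2189 in WT females and 185 in WT males.

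The call with the smallest p was Usmg5, a small membrane subunit of mitochondrial ATP synthase. It measured 2056, 2050, 1929, 2067 and 1859 in fluoxetine females and 2898, 3349, 3247, 2968 and 2460 in vehicle females, with a wide gap between the groups. The fluoxetine level was 0.671 times the vehicle level, a log2 fold change of -0.58 ± 0.07 (SE, adjusted p = 1.76e-06). Selenof, a selenoprotein of the endoplasmic reticulum, measured 3559, 3434, 3298, 3405 and 2821 against 4334, 4053, 4679, 4125 and 3860 and fell by 0.35 ± 0.06 on the log2 scale (SE, adjusted p = 0.000805). Chchd1, a subunit of the mitochondrial ribosome, measured 294, 289, 292, 326 and 281 against 503, 476, 401, 477 and 357 and fell by 0.57 ± 0.10 (SE, adjusted p = 0.0019). No library crossed between the groups for any of these 3 genes.

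Rpl17, of the large cytosolic ribosomal subunit, fell by 0.39 ± 0.07 (SE, adjusted p = 0.00264), Znhit3, an assembly factor of small nucleolar ribonucleoproteins, by 0.47 ± 0.08 (SE, adjusted p = 0.00264) and Tomm5, of the mitochondrial outer membrane translocase, by 0.41 ± 0.07 (SE, adjusted p = 0.00308). Usmg5, Selenof, Chchd1, Rpl17 and Znhit3 kept their call under all 19 alternatives run for the female comparison, and Tomm5 lost it under 2.

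Among nuclear oxidative phosphorylation genes, 5 of 72 fell and 0 rose, against 0.333% of all genes lower, with a list median of -0.12. They were the ATP synthase subunits Atp5l (log2 fold change -0.40) and Atp5j2 (-0.33), the complex I subunits Ndufv2 (-0.28) and Ndufs4 (-0.25), and the cytochrome oxidase subunit Cox7b (-0.31). With GC content and length corrected, 0 of the 72 were called and the median was -0.05. The count was also 0 without fluoxetine female 1, fluoxetine female 5, vehicle female 2 or vehicle female 3, 1 without vehicle female 1 or vehicle female 4, and 2 without fluoxetine female 2 or fluoxetine female 4. The 13 mitochondrially encoded genes of the same complexes had a median of 0.03 and 0 calls. Of 79 cytosolic ribosomal protein genes, 5 fell and 0 rose, again against 0.333% of all genes lower and with a median of -0.12: Rpl17, Rps7 (-0.31), Rpl9 (-0.35), Rpl13a (-0.32) and Rpl41 (-0.40). With GC content and length corrected, 3 of the 79 were called (Rpl17, Rpl13a and Rpl41) and the median was -0.04. The count was 1 without fluoxetine female 5 or vehicle female 3, 2 without vehicle female 1, 3 without fluoxetine female 2, vehicle female 2 or vehicle female 4, and 8 without vehicle female 5. Ribosomal protein genes have many processed copies in the genome, so reads could be split among them.

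The haemoglobin and red cell list, made of transcripts of blood left in the tissue, had a median of -1.03 in females, and 2 of its 6 members fell, against 0.333% of all genes. The beta-globin gene Hbb-bs measured 2435, 2080, 1579, 1860 and 1939 with fluoxetine and 3911, 7200, 4447, 3300 and 3784 with vehicle, so that the groups did not overlap. It fell by 1.15 ± 0.28 on the log2 scale (SE, adjusted p = 0.0298), and its near-identical neighbour Hbb-bt by 1.24 ± 0.31 (SE, adjusted p = 0.0405). Reads of these 2 genes may not be told apart fully. Hbb-bs lost its call under 8 and Hbb-bt under 10 of 19 alternatives, both with GC and length correction and without fluoxetine female 3, 4 or 5 or vehicle female 1, 2 or 3. In WT females Hbb-bs also fell, by 0.84 ± 0.28 (SE, adjusted p = 0.0409). The alpha-globin genes Hba-a1 and Hba-a2 stood at -0.98 and -0.95 with adjusted p of 0.12 and 0.131. In males Hbb-bs stood at 0.02, with 4489, 2817, 5327, 3768 and 4374 against 4964, 3368 and 3828. The sex difference of Hbb-bs was 1.18 ± 0.43 (SE, adjusted p = 0.517) and did not pass the test. Less blood in the tissue and less globin RNA per cell cannot be told apart in bulk samples, which holds for all cell type markers here.

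On the higher side, Gaa, the lysosomal enzyme that breaks down glycogen, measured 7390, 6377, 6255, 6143 and 7898 in fluoxetine females and 4247, 4950, 4025, 4884 and 5525 in vehicle females. The groups did not overlap, the ratio was 1.44, and the log2 fold change was 0.53 ± 0.10 (SE, adjusted p = 0.0064). Abcg1, an exporter of cholesterol, rose by 0.38 ± 0.07 (SE, adjusted p = 0.00634), from 1109, 1239, 991, 1100 and 1147 to 1625, 1323, 1386, 1260 and 1727. Polr2a, the largest subunit of RNA polymerase II, rose by 0.32 ± 0.06 (SE, adjusted p = 0.00814). The other rises with the smallest p were the transcription repressor Zhx3 at 0.27, the Rab regulator Sgsm1 at 0.35 and the chromatin remodeller Chd9 at 0.23.

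Of the lists, 2 of 24 lysosomal genes rose, against 0.394% of all genes higher: Gaa and Grn (0.30), which encodes progranulin. Without vehicle female 3, neither kept its call, as 0 of the 71 genes that rose in females did. Single members rose in 6 other lists, and all 6 lost their call with GC and length correction and without fluoxetine female 5 or vehicle female 3: Nlgn3 (0.34) among 28 postsynaptic density scaffolds, the synaptic vesicle gene Sv2a (0.24) among 26 genes of presynaptic release, the coactivator Crebbp (0.24) among 26 cAMP and CREB genes and the Mediator subunit Med13l (0.26) among 26 autism-risk regulators. Ncan (0.33) rose among 14 perineuronal net genes, and the VEGF receptor Flt1 (0.46) among 21 endothelial and mural genes. The largest rise among the called genes was Lars2, the mitochondrial leucyl-tRNA synthetase, named after its values were seen. It measured 13711, 6476, 6425, 7473 and 11757 in fluoxetine females and 4591, 4275, 2863, 3558 and 5088 in vehicle females, a log2 fold change of 1.12 ± 0.24 (SE, adjusted p = 0.012). Also chosen in this way, Lrp1, a lipoprotein receptor, rose by 0.43 ± 0.09 (SE, adjusted p = 0.0114), the axonal microtubule gene Map1b by 0.41 and the ankyrin gene Ank3 by 0.34.

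For nearly all called genes, the mean of vehicle females lay beyond those of the other 3 HT groups, while fluoxetine females lay near the males. Vehicle females had the lowest mean of the 4 HT groups for 71 of the 71 genes that rose, against 29.1% of all genes. They had the highest mean for 58 of the 60 that fell, against 27.7% of all genes. Since the genes were called on the vehicle females, that position is part of their choice. WT libraries entered the same fit and so the estimate of each gene's spread, but not the contrast of HT females. In WT mice, vehicle females had the lowest of the 4 group means for 65 of these 71 genes (26.4% of all genes) and the highest for 55 of the 60 (25.2% of all genes). For Usmg5, WT vehicle females measured 2771, 2825, 2715, 2046 and 2305, WT fluoxetine females 1985, 1807, 1972, 1722 and 2073, and WT vehicle males 2033, 1986, 1987, 2026 and 1858. Most WT vehicle females were thus high, like HT vehicle females, and the other groups lay close together. In the WT female comparison, 70 of the 71 genes lay above 0 and 59 of the 60 below 0, while over all genes 58.8% had the same sign in HT and WT females.

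**Figure D3:**
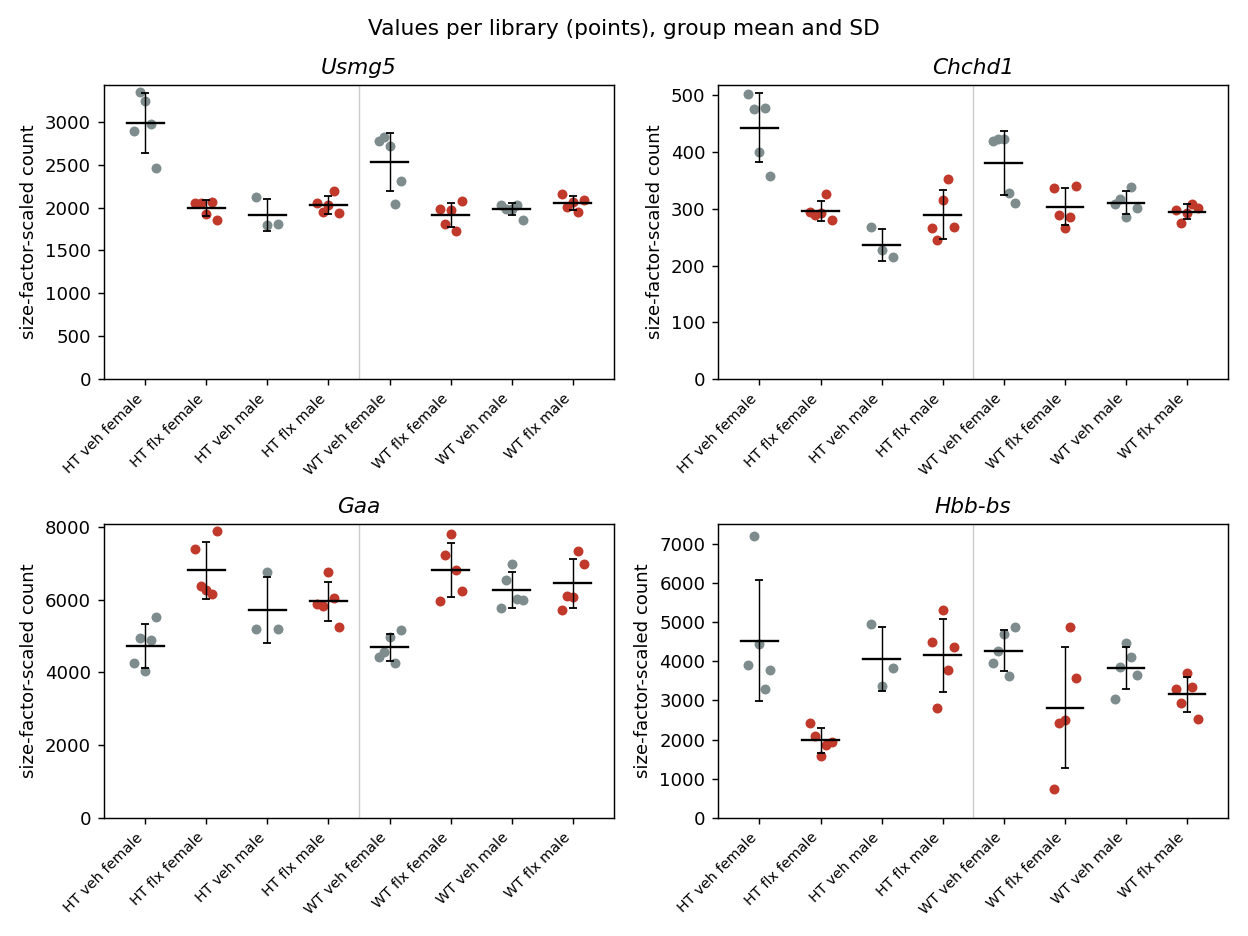
Size-factor-scaled counts (y axis, from 0) of Usmg5, Chchd1, Gaa and Hbb-bs in each library (points, grey for vehicle and red for fluoxetine) of the 8 vehicle and fluoxetine groups, with the group mean and SD (n = 5, and n = 3 for HT vehicle males). For Usmg5 and Chchd1 the vehicle females lie above the other groups in HT and in most WT libraries. For Gaa they are the lowest group in WT, and in HT vehicle female 5, at 5525, lies within the range of the males. For Hbb-bs the HT fluoxetine females are the lowest of the HT groups.

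The called genes were also set apart by transcript length. The 71 genes that rose had a median annotated transcript length of 6740 bases and the 60 that fell 1197 bases, against 3166 bases over all genes tested, with a median GC content of 53.1%, 46.2% and 49.3%. In 10 equal bins of genes ordered by length, the median female log2 fold change went from -0.10 in the shortest bin to 0.09 in the longest, and the male one from 0.04 to -0.01. The shortest bin held 31 of the 60 falls and 0 rises, and the longest 38 of the 71 rises and 0 falls. By library, the slope of the log2 deviation per doubling of length lay from -0.06 to 0.00 in vehicle females, from -0.01 to 0.04 in fluoxetine females and from -0.02 to 0.05 in males of both treatments. With GC content and length modelled in each library, 29 genes were called in females, 9 higher and 20 lower, and 26 of them were among the 131. These held Usmg5, Selenof, Chchd1, Rpl17, Znhit3, Gaa, Grn, Lars2, Rpl13a and Rpl41, all among the calls already described. Calls lost under it include the 5 oxidative phosphorylation genes, Rps7, Rpl9, Tomm5, Med21, Hbb-bs, Hbb-bt, Abcg1, Polr2a, Zhx3, Sgsm1, Chd9, Nlgn3, Sv2a, Crebbp, Med13l, Ncan, Flt1, Lrp1, Map1b and Ank3. The part of length in the other calls was not tested.

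**Figure D4:**
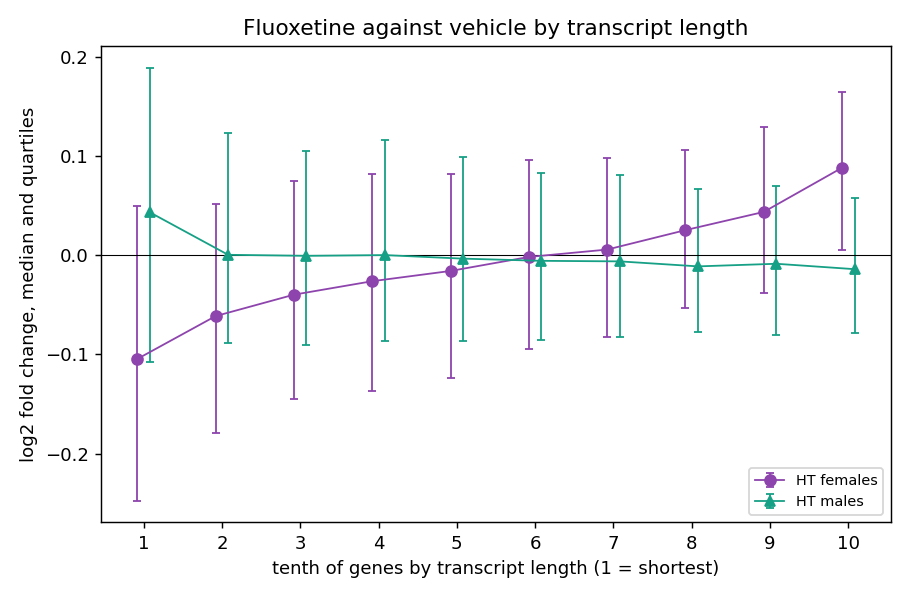
Median log2 fold change of fluoxetine against vehicle (y axis, bars from the lower to the upper quartile over genes) in 10 equal bins of genes ordered by transcript length (x axis), for HT females (circles) and HT males (triangles). The female medians go from -0.10 to 0.09 along the axis, and the male medians from 0.04 to -0.01.

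The female count leaned on single libraries. It was 9 without fluoxetine female 5, the deepest library at 35916099 reads, with 1 higher and 8 lower. Without vehicle female 3 it was also 9, with 0 higher and 9 lower. It was 45 without vehicle female 1, which held the choroid plexus and olfactory transcripts, 61 without vehicle female 2, 63 without fluoxetine female 1 and 304 without vehicle female 5. With only the 4 HT groups in the fit it was 34, with 10 higher and 24 lower, and with the olfactory level as a covariate 355, with 245 higher and 110 lower. By edgeR 69 of the 160 calls were higher and 91 lower.

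In HT males, 0 genes (0.0%) were called by limma or by edgeR, and 644 genes (3.57%) had an unadjusted p below 0.05. The comparison had 3 vehicle males. Without vehicle male 2 it called 1 gene. The smallest p belonged to Acads, the short-chain acyl-CoA dehydrogenase of fatty acid oxidation, named after its values were seen. It measured 181, 176, 191, 180 and 175 in fluoxetine males and 133, 128 and 108 in vehicle males, with no overlap, a log2 fold change of 0.56 ± 0.12 (SE, adjusted p = 0.233). In females it measured 145, 162, 147, 163 and 145 against 163, 157, 182, 127 and 138, with a log2 fold change of 0.00 ± 0.10 (SE). Immediate early genes, which report recent neuronal firing, differed in direction between the sexes without passing a test: the 19 transcription factors of this list lay at a median of 0.25 in males, against -0.24 for females. The male median was 0.07 without vehicle male 1 and 0.37 without vehicle male 2. The female median was -0.13 without fluoxetine female 2, -0.37 without vehicle female 1 and -0.36 without vehicle female 2. Egr2, chosen after its values were seen, measured 163, 218, 313, 373 and 263 in fluoxetine males and 71.6, 157 and 96.8 in vehicle males. In females Egr2 measured 126, 81.7, 91.8, 219 and 122 against 83.8, 290, 290, 197 and 485. The spread within each group was wide, and the sex difference of 2.25 ± 0.70 (SE) had an adjusted p of 0.397.

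The test of the sex difference itself, the male effect minus the female effect, called 5 genes (0.0277%) in limma and 5 in edgeR, all with a more positive effect in males. They were Usmg5 (0.67 ± 0.11, adjusted p = 0.00193), Chchd1 (0.85 ± 0.15, adjusted p = 0.0029), Rpl17 (0.61 ± 0.10, adjusted p = 0.0029), Tomm5 (0.59 ± 0.11, adjusted p = 0.0182) and the Mediator subunit Med21 (0.62 ± 0.13, adjusted p = 0.0393), each as a log2 difference with its SE. Each fell in females, and none passed the test in males, where they stood between 0.09 and 0.28. Vehicle males measured 2127, 1795 and 1807 for Usmg5 and 268, 227 and 215 for Chchd1, both below every vehicle female, and fluoxetine males measured 2051, 1952, 2028, 2197 and 1930 for Usmg5. For these genes the vehicle males and vehicle females did not overlap, while for Usmg5 the fluoxetine groups of the sexes did. With only the HT groups in the fit, 0 genes were called, and without vehicle male 3 only 1. Without fluoxetine female 4, fluoxetine male 4 or vehicle female 3, 3 genes were called. Across all genes, which are not independent, the female and male effects had a Pearson r of 0.02, and 49.5% of genes had the same sign.

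**Figure D5:**
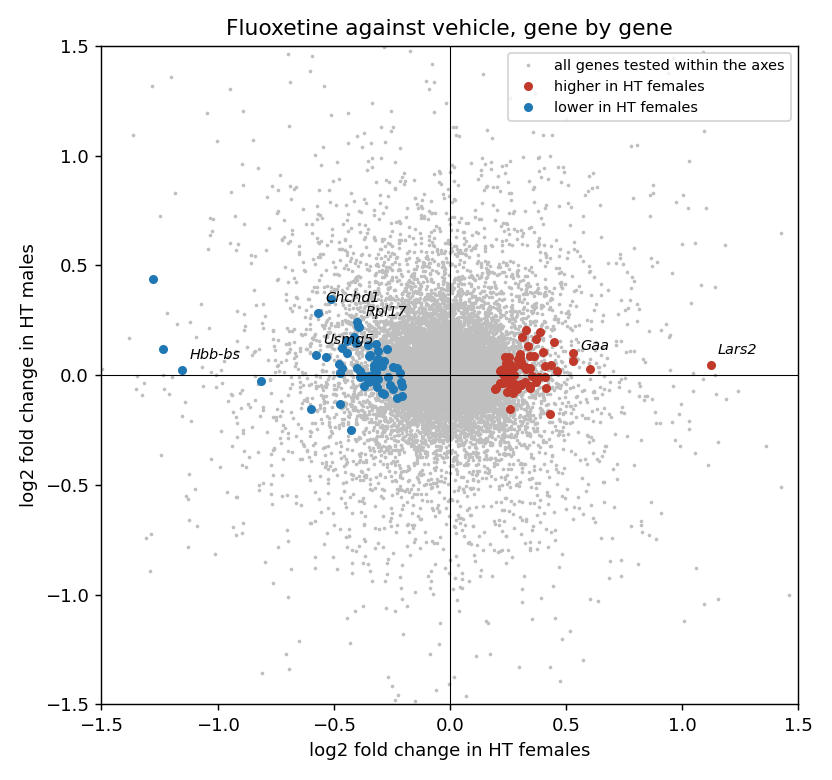
Log2 fold change of fluoxetine against vehicle in HT females (x axis) and HT males (y axis), 1 point per gene, with the genes called higher (red) and lower (blue) in females marked. The axes end at 1.5 on either side and leave out 75 of 18026 genes; the coloured points lie away from 0 on the female axis and on both sides of 0 on the male axis.

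No gene passed the test of a different fluoxetine effect in HT and WT mice: 0 genes (0.0%) were called by limma or by edgeR, and 634 genes (3.52%) had an unadjusted p below 0.05. WT mice had 933 calls with the sexes averaged (5.18%), 575 higher (3.19%) and 358 lower, but a call in 1 genotype and not in the other does not show a difference. Across all genes, which are not independent, the averaged effects had a Pearson r of 0.30 between the genotypes, in mice that share no library, and 67.5% of genes had the same sign. For Usmg5 the difference was -0.07 ± 0.07 and for Gaa 0.01 ± 0.11 (SE). The unadjusted p was small for Acads (0.44 ± 0.11, adjusted p = 1.0) and for Egr3, an activity-induced transcription factor (-0.63 ± 0.16, adjusted p = 1.0), both named after their values were seen: Egr3 stood at 0.03 in HT and at 0.67 in WT. In females alone the genotype difference also called 0 genes, in limma and in edgeR, with 2086 (11.6%) at an unadjusted p below 0.05. It called 1 gene without HT vehicle female 1 and 47 without WT fluoxetine female 5.

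Of the other lists, chaperones and folding enzymes of the endoplasmic reticulum lay slightly above vehicle with the sexes averaged. The 20 members had an averaged median of 0.09, with 6 higher and 0 lower at an unadjusted p below 0.05 (3.82% of all genes were higher at that level) and 0 called. Over 27 alternatives 3 to 9 were higher. Over 19 for females the median ran from 0.10 to 0.17 with 6 to 9 higher. Over 17 for males it ran from -0.01 to 0.09 with 0 to 2 higher. The chaperone cofactor Sdf2l1 stood at 0.32 ± 0.12 (SE, adjusted p = 0.456) and calreticulin, Calr, at 0.16 ± 0.06 (SE, adjusted p = 0.459). Calr measured 10311, 9342, 9398, 10318 and 10640 in fluoxetine females and 8952, 7856, 7434, 8834 and 9656 in vehicle females, where only vehicle female 5 reached the fluoxetine range. In WT mice the list median was 0.12 with 5 members called higher, where 3.19% of all genes were called higher.

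Among 22 genes of myelinating oligodendrocytes, 0 were called in HT (median -0.02) and 9 were called lower in WT (median -0.52), where 1.99% of all genes were called lower. In HT the sexes lay apart, the female median being 0.23 and the male one -0.29. Over single libraries left out, the female median ranged from 0.13 (without vehicle female 4) to 0.40 (without fluoxetine female 2), with 0.14 without vehicle female 2 and 0.35 without vehicle female 1. The male median was -0.12 without fluoxetine male 1 and otherwise between -0.40 and -0.26. Tspan2, a tetraspanin of oligodendrocytes, stood at -0.28 ± 0.15 in HT (SE, adjusted p = 0.73) and fell by 0.72 ± 0.14 in WT (SE, adjusted p = 0.00145), and the difference of 0.44 ± 0.20 had an adjusted p of 1.0. Opalin, a myelin membrane gene, stood at -0.45 ± 0.23 in HT (SE, adjusted p = 0.702) and at -0.79 in WT. By library the mean marker level ranged from -0.83 to 0.26 in fluoxetine males and from 0.07 to 0.12 in the 3 vehicle males.

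Choroid plexus markers had an averaged median of -0.44, set by vehicle female 1: without that library it was -0.04. The averaged medians were 0.06 for 18 astrocyte markers, 0.01 for 20 microglial markers, 0.01 for 20 interneuron markers, 0.06 for 15 upper-layer and -0.03 for 16 deep-layer neuron markers, with 0 called in each. The postsynaptic density list had a median of 0.06 with 5 members higher and 0 lower at an unadjusted p below 0.05. At that level 3.82% of all genes were higher and 3.43% lower. Over 27 alternatives the list median ran from 0.01 to 0.08, with 3 to 7 members higher. Over 19 for females it ran from 0.06 to 0.17, with 2 to 15 higher and 0 lower. Over 17 for males it ran from -0.04 to 0.04, with 0 to 2 higher and 0 to 1 lower. Among the 5 higher in the average was Shank1, a relative of Shank3, at 0.25 ± 0.09 (SE, adjusted p = 0.427). The inducible heat shock genes Hspa1a and Hspa1b stood at 0.44 ± 0.14 and 0.56 ± 0.20 (SE), with adjusted p of 0.406 and 0.454. NMDA, AMPA and GABA-A receptor subunits, with medians of 0.08, 0.01 and -0.05, had 0 of 6, 0 of 16 and 0 of 13 members at an unadjusted p below 0.05.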

How the data were processed

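Libraries were made with a stranded mRNA kit, according to the extract protocol. Values deposited by the authors are a signal: reads of a gene over a library-wide size factor. Salmon 0.11.2, R 3.6.0, DESeq2 1.19.11 and the build GRCm38 are named in the submitters' processing notes, without their roles. Of 59 columns, 56 match a labelled sample, and 3 match none and were not used. 1 labelled sample is not analysed here.

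Whole reads were recovered from the values in 100.0% of cases (within 1e-06 of a whole number). The 18026 genes reaching 10 in 3 or more libraries were fitted on log2(value + 1) with limma-trend (limma 3.58.1, R 4.3.3) over all 12 groups of genotype, drug and sex, with 44 residual degrees of freedom. Tests were contrasts of group means, two-sided, with Benjamini-Hochberg adjustment over all genes and a threshold of 0.05. Fold changes are on the log2(value + 1) scale, which understates low genes. Scaling by a size factor hides a change in total RNA, and reads of near-identical genes may be shared between them.

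edgeR 4.0.16 (quasi-likelihood test) was run on the recovered reads, and pseudocount 5, no filter, TMM factors, only the compared groups, a replicate block, GC and length correction (spline with 4 degrees of freedom), an olfactory covariate and leaving out each library were tried. Transcript length and GC content come from the GENCODE annotation of GRCm38, and promoters from RefSeq (GRCm38.p6). The scripts were tested on simulated data. The replicate block together with the GC and length correction, and the genotype difference within females, were added after seeing the data.

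Genes were named by rule: fixed serotonin genes and Shank3, for the average of both sexes the 10 smallest p per direction, up to 6 called genes per direction in the other comparisons, and up to 4 called or 2 other members per list. Others are said to be chosen after their values were seen. The comparisons, lists and alternatives were chosen with earlier results of these data known. Some items are not reported here. None of the 33 pairs of HT libraries within a group agreed within sampling noise.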

Additional observations from a re-analysis of the deposited data

Results flagged for a closer look

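The 5 genes whose fluoxetine effect differed between HT females and HT males were taken up because the test of that difference passed in limma: Usmg5 by 0.67, Chchd1 by 0.85, Rpl17 by 0.61, Tomm5 by 0.59 and Med21 by 0.62 on the log2 scale, with adjusted p between 0.00193 and 0.0393. In all 5, vehicle females were the high group.

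Single libraries lying far from the rest of their group were looked for in 276 sets of values, of which about 1 in 20 would be picked out by chance, and 22 were found. In vehicle female 1, Ttr was 50312 and the choroid plexus level 5.01 (next highest 0.32). In fluoxetine male 5, the olfactory level was 2.61 times the mean of all libraries (next highest 0.44) and Dpysl2 was low at 3311. In fluoxetine female 5, reads were high at 35916099, as were Med13l at 3764 and Lrp1 at 16270, while Zfp971 was low at 165. In vehicle female 5, Bicra was high at 743 and Chd9 at 3568, Rpl13a was low at 4378 and Rpl41 at 5140, and the slope per doubling of transcript length was 0.0036 (next highest -0.04).

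The remaining values stood alone. In fluoxetine females these were Hmgcs1 at 11340 and Psma7 at 1799 in replicate 1, Nab2 at 791 in replicate 2, and Htr1a at 542 and Chchd1 at 326 in replicate 4. In vehicle females these were Hbb-bt at 1191 in replicate 2 and Tph2 at 23.3 in replicate 4. In fluoxetine males these were Hspa5 at 5116 in replicate 1 and Mrpl11 at 790 in replicate 2.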

How the results depend on the processing

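The female count of 131 was 131 with a pseudocount of 5 or no filter, 133 with TMM factors, 150 with a replicate block and 160 by edgeR. It was 34 with only the compared groups, 29 with GC and length correction, 31 with a replicate block and GC and length correction, and 355 with the olfactory covariate, and ranged from 9 to 304 over single libraries left out. The averaged count ranged from 0 to 3 and the male count from 0 to 1 over single libraries left out, and both were 0 under every other alternative run. The sex difference called 0 genes with only the compared groups, 3 with GC and length correction, 3 with a replicate block and GC and length correction, 8 with the olfactory covariate and 7 with a replicate block, and from 1 to 7 over single libraries left out. The HT and WT difference stayed at 0 in every alternative run. In females alone it was 2 with GC and length correction and 356 with the olfactory covariate, and from 0 to 47 over libraries left out, the 47 without WT fluoxetine female 5. The cause of these shifts was not tested.

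Direction turned only for values near 0. Htr2c was -0.0099 with a replicate block, -0.0025 with a replicate block and GC and length correction, and from -0.057 to 0.073 over single libraries left out. Shank3 was -0.045 with GC and length correction, -0.0347 with a replicate block and GC and length correction, and from -0.0092 to 0.075 over single libraries left out. Htr1b was from -0.034 to 0.074 over single libraries left out. Of the 95 gene results, 42 lost a call under at least 1 alternative. The sex-averaged results among the 95 had no call to lose, so the share among results that were calls is higher.

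Among 8 pairs of libraries with the same replicate number, the correlation of deviations ran from -0.02 to 0.24, and 2 pairs exceeded 0.1. Of the 8 vehicle libraries, 4 correlated best with their own number. No reference was set for such values, so they cannot tell whether the numbers pair the samples. Tph2, Ccrl2 and, in most libraries, Ttr have low values, so depth limits their precision most.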
